A study of Arabidopsis thaliana with 3 samples.

Results

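The 60 nuclear photosystem and light-harvesting genes of Arabidopsis thaliana were examined for UBP5-GFP peaks. They were taken from the 27444 protein-coding genes on chromosomes 1 to 5 of the RefSeq TAIR10.1 annotation as the genes whose product text holds "photosystem", "light harvesting", "light-harvesting" or "chlorophyll a/b". By product text, 19 encode antenna proteins, 14 photosystem I proteins and 26 photosystem II proteins, and 1, HCF136, is named as a stability and assembly factor. The rule follows the wording of the annotation and so leaves out a few well-known genes. LHCA1, an antenna gene of photosystem I, PSBO1, which encodes the main PsbO protein, and NPQ4, which encodes PsbS, are worded differently, and none of the 3 had a peak in either replicate.

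UBP5 is a ubiquitin-specific protease that removes ubiquitin from histone H2A, a mark linked to Polycomb repression. Chromatin was immunoprecipitated (IP) with an antibody against GFP from UBP5::UBP5-GFP;ubp5 seedlings, in which the ubp5 mutant carries UBP5 fused to GFP under the gene's own promoter, in the Col-0 ecotype. Whole seedlings were collected 12 days after germination, so the signal is a mixture of their cell types. There were 2 IP replicates and 1 input, and both replicates were compared with that input. An IP from plants without GFP was not analysed here, so that UBP5 and any other source of signal in a GFP IP cannot be told apart at a peak. The study's methods describe the replicates as independent biological ones.

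Photosystem II splits water and photosystem I reduces ferredoxin, and each is surrounded by light-harvesting complexes that pass on excitation energy through chlorophyll. The reaction centre subunits are encoded in the chloroplast. The antenna proteins, the lumenal subunits and some of the small subunits are encoded in the nucleus, and assembly factors put the subunits together. Light, acting in part through promoter elements such as the G-box and the I-box, switches the nuclear genes on, and in green seedlings they are among the most strongly transcribed genes. Transcript levels were not measured in these samples.

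A gene was called bound when a peak of each replicate overlapped its body by at least 1 bp, the body running from the first to the last annotated base. Of the 60 genes, 6 were bound (10.0%), against 29.0% of all 27444 genes (7971 genes). Replicate 1 had a peak on 9 of the 60 (15%, against 33.8% of all genes) and replicate 2 on 6 (10.0%, against 31.4%). The 6 were the same genes in both replicates. A further 3 had a peak in replicate 1 and none in replicate 2, none had a peak in replicate 2 alone, and 51 had no peak in either.

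The bound genes were not spread over the apparatus. None of the 19 antenna genes and none of the 14 photosystem I genes had a peak in either replicate, and all 9 genes with a peak encode photosystem II proteins, relatives of them, or the assembly factor HCF136. Of the 26 photosystem II genes, 5 were bound (19.2%). They do not include the genes of the PsbP and PsbQ subunits or of PsbR, PsbW, PsbX and PsbY, which had no peak. They are PSB28 and PSB29, whose products act in the formation or upkeep of photosystem II and thylakoids, a pair of genes of the PsbP family and a relative of PsbO. PSB27 and LPA19, of the same photosystem II group, had no peak in either replicate.

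**Figure D1:**
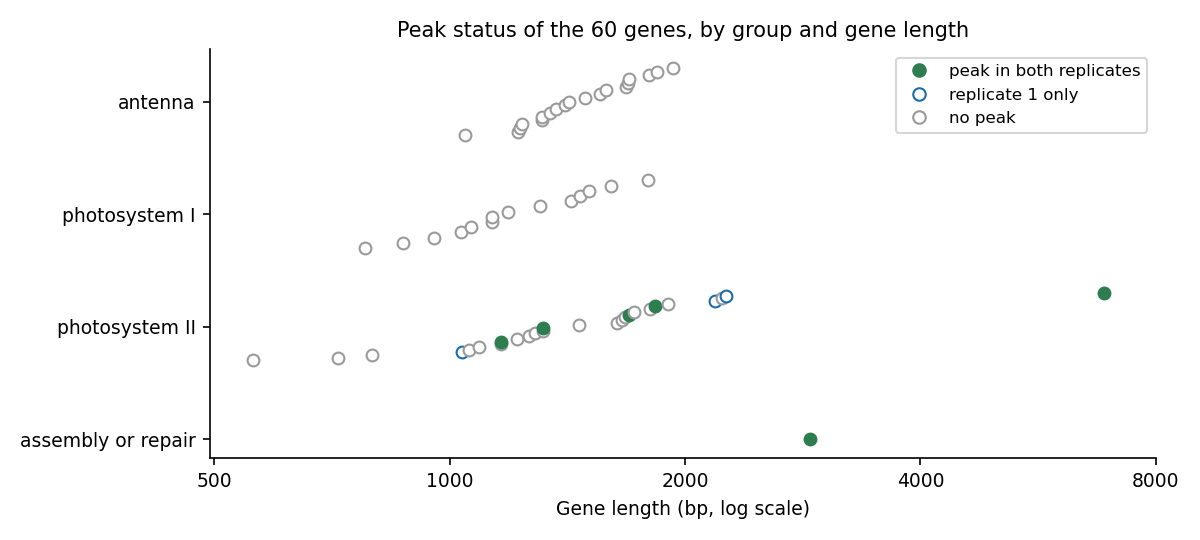
Each point is a photosystem or light-harvesting gene, placed by gene length (bp, log scale) and by group. Filled points had a peak in both replicates (6 genes), blue open points in replicate 1 alone (3 genes) and grey open points in neither (51 genes), and the antenna and photosystem I rows hold grey points alone.

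The bound share differed with gene length. The members are short, with a median length of 1385.5 bp (560 to 6863 bp), against 2080 bp for all other protein-coding genes. Among other genes the bound share climbed with length, and it was 4.63% in the shortest of 10 length classes and 48.0% in the longest. When the other genes were weighted to the members' length classes, 21.9% of them were bound, which would be 13.2 of 60 genes, against the 6 observed. Replicate 1 alone gave 15% of the members against 25.3% of other genes of like length, and replicate 2 alone 10.0% against 24.0%. The share of members thus lay below that of genes of like length in each replicate. This is a description of 1 gene list over 2 peak lists, and no test was made of it.

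The same weighting was made for each group. For the antenna genes, 0 of 19 were bound where genes of like length gave 23.4% (4.44 genes). For the photosystem I genes, 0 of 14 were bound where genes of like length gave 17.0% (2.38 genes). The photosystem II genes, with 19.2% bound, lay close to the 22.8% of genes of like length (5.93 genes against 5 observed). By these groups, the shortfall against length lay mostly with the antenna and photosystem I genes. The photosystem II group takes in relatives of PsbP and PsbO and the genes PSB28 and PSB29. Without the 10 genes whose product text names PsbP, 3 of 16 were bound (18.8%), against 18.7% of genes of like length. That split was made after the peaks were seen. The 16 include the genes of the PsbP, PsbQ, PsbR, PsbW, PsbX and PsbY subunits, which had no peak. The expected counts are small, and the split between groups was not tested. In length classes with at least 7 members, the members' share was the lower in every case, with 0 of 12 against 10.4% between 771 and 1146 bp, 2 of 21 (9.52%) against 21.0% between 1147 and 1489 bp, 1 of 13 (7.69%) against 25.5% between 1490 and 1789 bp, and 1 of 7 (14.3%) against 30.8% between 1790 and 2078 bp.

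**Figure D2:**
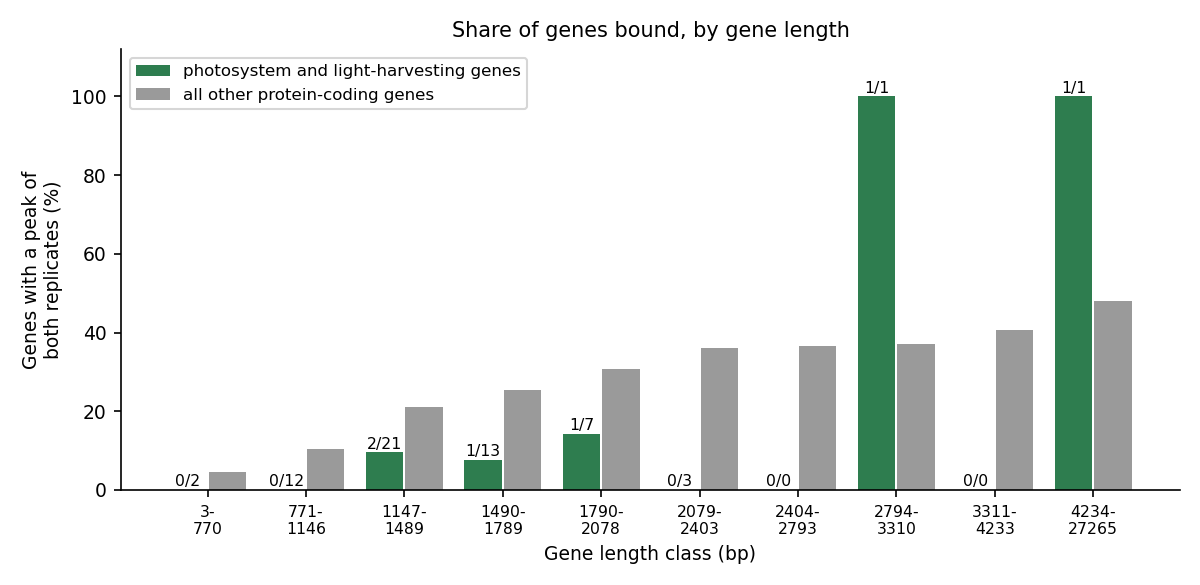
Bars give the percentage of genes with a peak of both replicates in 10 classes of gene length, in green for the 60 members (bound over total above each bar) and in grey for all other nuclear protein-coding genes. Members lie below other genes in the 6 shortest classes, and the 2 classes at 100% hold 1 member each.

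Reads with more than 1 possible place were dropped by the authors, and several antenna genes are near-copies of one another. The share of 100-base words in a gene body that occur once in the genome was 100% in 51 of the 60 members (85.0%). This held for 93.2% of all protein-coding genes and for 12 of the 19 antenna genes (63.2%). The lowest were LHCB2.2 at 88.7% and LHCB2.1 at 90.7%, which encode the same kind of mobile antenna protein, and the LHCB1 genes CAB1, CAB2, CAB3, LHB1B1 and LHB1B2 lay between 95.6% and 98.5%. All 14 photosystem I genes were at 100%. The coverage of these genes by reads was not examined, and the part of repeated sequence in the counts was not tested.

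The strongest member was AT3G05410, a PsbP family gene at chromosome 3, 1554673 to 1561535, and at 6863 bp the longest of the 60. Fold enrichment is the IP pileup at a peak's summit divided by the background level that the caller expected there. The peak of AT3G05410 had a fold of 4.23 in replicate 1 and 2.93 in replicate 2, a mean of 3.58 ± 0.919 (SD, n = 2). The −log10 q-values were 55.8 and 64.9. Among the 7971 bound genes its fold stood above 94.3% of them in replicate 1 and above 88.3% in replicate 2. The peak was 520 and 477 bp wide and covered the beginning of the gene, with summits in a coding exon 282 and 348 bp after the first base, at 4.11% and 5.07% of the gene's length. A long intron lies before the last exon. Of the 100-base words in the whole gene body, 93.8% occur once in the genome.

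HCF136, at chromosome 5, 7778017 to 7780907, encodes a lumenal factor needed for assembly of the photosystem II reaction centre. It had folds of 2.67 in replicate 1 and 2.04 in replicate 2 (2.35 ± 0.448, SD, n = 2). Its summits lay 477 and 382 bp after the first base, in an intron in replicate 1 and in a coding exon in replicate 2. PSB28, at chromosome 4, 14149849 to 14151163, encodes a small protein that binds photosystem II during assembly. It had folds of 2.47 and 2.07 (2.27 ± 0.285, SD, n = 2), with summits 312 and 324 bp after the start, both in an intron and 12 bp apart. HCF136 and PSB28 sat near the middle of all bound genes, above 59.6% and 47.7% of them in replicate 1 and above 52.9% and 54.9% in replicate 2.

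The other 3 bound members had lower folds. PSB29, also known as THF1, is required for normal thylakoid formation and lies at chromosome 2, 8987584 to 8989416. Its folds were 2.09 and 1.76, with summits 302 and 317 bp after the start in a coding exon. AT1G76450, a PsbP family gene at chromosome 1, 28684551 to 28686244, had folds of 2.00 and 1.58, with summits 261 and 328 bp after the start. AT4G37230, annotated as a PsbO family gene at chromosome 4, 17516424 to 17517587, had the lowest folds of the bound members at 1.98 and 1.47, with summits 107 and 103 bp after the start in a coding exon. At 1.47, AT4G37230 stood above 2.27% of the bound genes in replicate 2. Its annotated coding sequence begins at the gene's first base, so its distances are counted from there.

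The 3 genes with a peak in replicate 1 alone all carry the PsbP name in their product text. AT1G69680 had a fold of 1.98 with the summit in an intron 236 bp after the start. Its product is described first as a putative Ran guanine nucleotide release factor, so that it belongs to the list through the name of a shared fold. PPD5, which encodes a PsbP domain protein, had a fold of 1.87 with the summit 275 bp after the start. AT2G28605, a PsbP family gene, had a fold of 1.85 with the summit 352 bp after the start. These 3 values lay below those of the 6 bound genes in replicate 1, which ran between 1.98 and 4.23, except that AT1G69680 and AT4G37230 shared 1.98. Taking the 10 genes whose product text names PsbP as a group, which was formed after their peaks were seen, 2 were bound (20.0%, with 29.4% of genes of like length) and 5 had a peak in replicate 1.

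**Figure D3:**
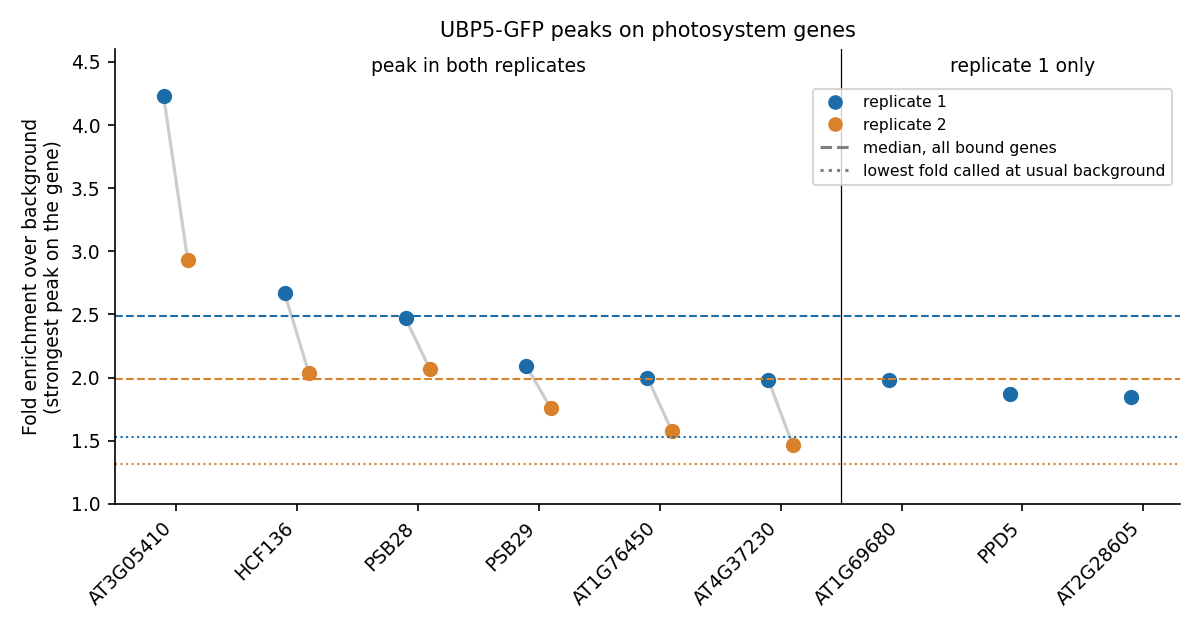
Points give the fold enrichment of the strongest peak on each of the 9 members with a peak, replicate 1 in blue and replicate 2 in orange, joined where both exist. Dashed lines mark the medians of all 7971 bound genes (2.49 and 1.99) and dotted lines the lowest fold called at the usual background level (1.53 and 1.32), and 4 of the 6 bound members lie below the dashed line of replicate 1.

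How low a fold could be listed depended on depth. Solving each peak's fold and p-value for the level that the caller expected gave 1 background level in each replicate, shared by most peaks. It described 88.2% of peaks in replicate 1, at 44.1 fragments. In replicate 2 it described 85.4%, at 122 on the caller's scale, or 168 fragments by an inferred step of 0.725. All peaks on the members stood on that level in both replicates, so their folds are ratios to this shared level and not to a local one. At that level the lowest fold listed was 1.53 in replicate 1 and 1.32 in replicate 2. A gene with no peak can therefore have had an enrichment of up to about these values, and absence of a peak is not absence of UBP5-GFP. The median fold of the 6 bound members was 2.28 in replicate 1 and 1.90 in replicate 2, against 2.49 and 1.99 for all bound genes. Fold was higher in replicate 1 in 6 of the 6, as in 97% of all bound genes.

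The summits of the 6 bound members had a median distance of 292 bp after the gene's first base in replicate 1 and 326 bp in replicate 2, against 328 and 331 bp for all bound genes. Between replicates the summits of a gene lay between 4 bp (AT4G37230) and 95 bp (HCF136) apart. Coding exons held 4 of the 6 summits in each replicate (66.7%) and introns 2 (33.3%), against 48.6% and 25.8% for all bound genes in replicate 1. In the 5′ UTR lay 0 of the 6, against 22.8% of all bound genes in replicate 1 and 21.3% in replicate 2. The annotated coding sequence of AT4G37230 begins at the gene's first base, with no 5′ UTR before it. None of the 6 had a summit in a 3′ UTR or outside the body, and none of their peaks reached the body of another protein-coding gene.

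**Figure D4:**
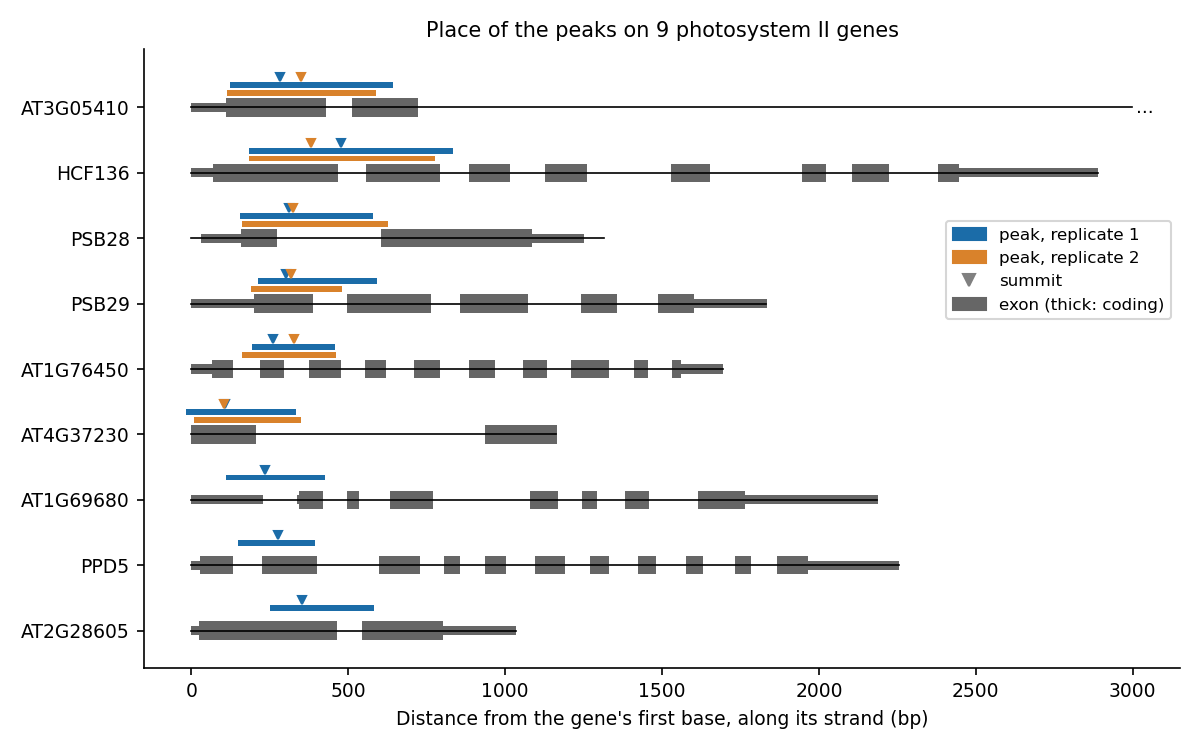
Each row is a gene with a peak, drawn to scale from its first base along its strand up to 3000 bp (dots mark a gene that goes on). Grey boxes are exons of the transcript with the longest coding sequence, thick where coding, and blue and orange bars with triangles are the peaks and summits of replicates 1 and 2, which sit over the beginning of each gene.

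Sequence at the peaks is shown for the 3 bound genes with the highest folds, on the gene's strand and on TAIR10.1, to let the summits be read in their context. Each window spans both summits and, where there is one within 100 bp of a summit, the Telobox (AAACCCTA or its reverse complement TAGGGTTT), an element known from Polycomb response sequences in Arabidopsis, in capitals. None of the bases belongs to an annotated UTR.
AT3G05410 (chr3:1554940-1555036, + strand): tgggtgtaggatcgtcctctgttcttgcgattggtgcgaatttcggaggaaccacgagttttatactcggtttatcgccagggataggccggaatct
PSB28 (chr4:14150073-14150188, + strand): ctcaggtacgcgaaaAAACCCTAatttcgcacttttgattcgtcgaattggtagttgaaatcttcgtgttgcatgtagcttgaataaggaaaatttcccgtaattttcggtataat
HCF136 (chr5:7778384-7778593, + strand): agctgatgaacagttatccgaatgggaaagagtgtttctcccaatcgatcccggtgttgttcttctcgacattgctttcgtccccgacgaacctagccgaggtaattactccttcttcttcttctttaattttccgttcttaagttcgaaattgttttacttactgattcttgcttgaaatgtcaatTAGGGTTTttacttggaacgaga

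Within 100 bp of the replicate 1 summit, the Telobox was present in 2 of the 6 bound members, PSB28 and HCF136, against 16.5% of all bound genes. Around the replicate 2 summit it was present in 1, PSB28, against 16.6%. In PSB28 its middle lay 69 and 81 bp before the summits of replicates 1 and 2. In HCF136 its middle lay 81 bp after the summit of replicate 1 and 176 bp after that of replicate 2. No GAGA word (GAGAGAGA or TCTCTCTC) was found within 100 bp of a summit of the 6, against 7.4% and 7.19% of all bound genes. With 6 genes these shares are a count of sites and no more.

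Over the 60 members the same words were counted whether or not a peak was present. In the window from 250 bases before to 50 bases after the gene's start, the G-box (CACGTG) was found in 20 members (33.3%), against 7.68% of all protein-coding genes, and the I-box (GATAAG or CTTATC) in 24 (40%), against 14.6%. The Telobox was found in 3 members (5.00%, against 6.22%) and the GAGA word in 1, HCF136 (1.67%, against 8.38%). The G-box was found in 11 photosystem II, 4 photosystem I and 4 antenna genes, and in HCF136. The I-box was found in 9 of 14 photosystem I genes (64.3%), 10 of 26 photosystem II genes (38.5%) and 5 of 19 antenna genes (26.3%). Bound and unbound members overlapped in this respect, with the G-box in 3 of 6 bound members (PSB28, PSB29 and HCF136) and in 17 of 54 unbound ones (31.5%). Genome-wide the G-box share was 9.72% of bound and 6.84% of unbound genes.

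The G-boxes of the 4 antenna genes, which had no peak, are shown in capitals with 27 bases on either side on the gene's strand. They begin between 74 and 124 bases before the start.
LHCB4.1 (chr5:208765-208824, + strand): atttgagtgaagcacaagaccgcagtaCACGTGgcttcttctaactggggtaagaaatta
LHCB2.3 (chr3:10255791-10255850, + strand): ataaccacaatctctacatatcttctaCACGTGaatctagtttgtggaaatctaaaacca
LHCA4 (chr3:17495089-17495148, - strand): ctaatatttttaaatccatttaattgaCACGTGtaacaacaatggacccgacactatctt
LHCB6 (chr1:5447972-5448031, - strand): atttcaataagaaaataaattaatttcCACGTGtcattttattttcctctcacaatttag

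In the first 500 bases of the gene, where most summits lie, the Telobox was found in 4 members (6.67%), against 16.7% of all genes and 31.0% of all bound genes. This window was chosen after the place of the summits was known. The 4 comprise PSB28, which was bound, and 3 unbound genes. None of the 19 antenna genes held the word there. The I-box was found in 51.7% of members in this window, against 23.8% of all genes.

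The antenna genes are described one family at a time, since all of them lacked a peak. The photosystem II antenna genes are CAB1, CAB2, CAB3, LHB1B1 and LHB1B2, which encode the major LHCB1 protein, LHCB2.1, LHCB2.2, LHCB2.3 and LHCB3 of the same trimers, and LHCB4.1, LHCB4.2, LHCB4.3, LHCB5 and LHCB6 of the minor monomeric complexes. The photosystem I antenna genes are LHCA2, LHCA3, LHCA4, Lhca5 and Lhca6. Their bodies spanned 1045 to 1931 bp. The nearest peak of replicate 1 lay at a median of 3885 bp from the body and that of replicate 2 at 3860 bp. For all unbound protein-coding genes these medians were 3338 and 3647 bp. CAB3, CAB2 and CAB1 lie next to one another on chromosome 1, with the nearest peaks 3362, 5738 and 7371 bp away in replicate 1 and 3591, 5967 and 7378 bp away in replicate 2. LHCB2.1 lay 21957 and 21925 bp from a peak, and LHCA3 lay 36084 and 17614 bp from one. LHB1B1 and LHB1B2, another close pair, lay 3788 and 3490 bp from a peak of replicate 1.

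At the other end of the range, Lhca6, which links photosystem I to the NADH dehydrogenase-like complex, lay 187 and 230 bp from peaks, and LHCB6 389 and 543 bp. A gene next to an unbound member was bound for 30 of 54 (55.6%), against 45.3% of all other unbound genes. By group this held for 11 of 19 antenna genes (57.9%), 14 of 21 unbound photosystem II genes (66.7%) and 5 of 14 photosystem I genes (35.7%), the last below the other genes.

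The count also depended on peaks immediately before the start. When the body was extended by 500 bp upstream, 13 of the 60 were bound (21.7%), against 31.7% of all genes and 24.6% of other genes of like length. The 7 added genes, named here after their values were seen, were Lhca6, the photosystem I genes PSAO, PSAE-2 and AT1G49975, and the photosystem II genes PSBTN, PSBQA and AT1G69680. In 7 of 7 the upstream peak of each replicate lay on the body of a neighbour transcribed the other way, with 9 to 183 bp between the annotated starts. The summits lay 179 to 398 bp after the neighbour's start, where all bound genes had a median of 328 bp in replicate 1 and 331 bp in replicate 2. How often peaks gained by the extension lie on such a neighbour over all genes was not counted here. Whether the placing is particular to the members was not tested.

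The neighbours were a mixed set. PSAE-2, which encodes the PsaE subunit, neighbours AT2G20250, whose peak had folds of 3.25 and 2.74. PSBTN, whose product is annotated as photosystem II subunit T, neighbours RBL, a WD40 protein gene, with folds of 3.36 and 2.89. PSBQA, which encodes a subunit of the oxygen-evolving complex, neighbours the kinesin gene ATK1, with folds of 2.65 and 2.18. Lhca6 neighbours AT1G19140, a COQ9-like gene, with folds of 2.54 and 2.01. AT1G69680 neighbours the ubiquitin ligase gene CUL3B, with folds of 2.49 and 1.98. AT1G49975, a PsaN gene, neighbours CLPR1, which encodes a chloroplast protease subunit, with folds of 2.42 and 1.93. PSAO, which encodes the O subunit, neighbours AT1G08390, with folds of 2.20 and 1.66. The peaks of these neighbours stood at or above the folds of 3 of the 6 bound members in both replicates, apart from that of PSAO's neighbour in replicate 2, which lay below PSB29.

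**Figure D5:**
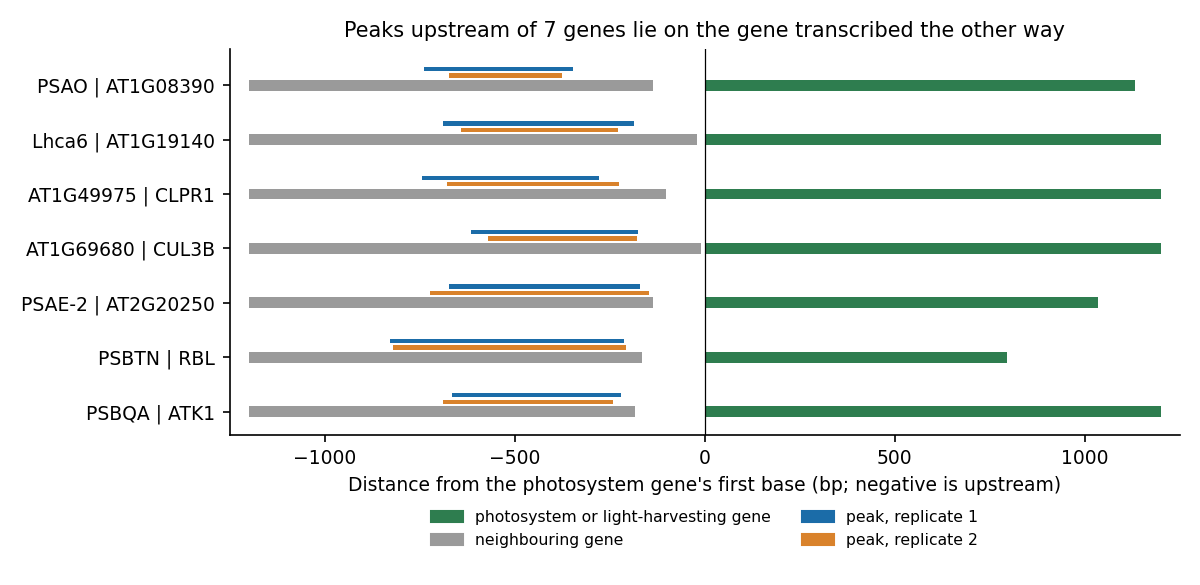
Each row is a member (green) and its upstream neighbour (grey), drawn to scale up to 1200 bp on either side of the member's first base at 0. Blue and orange bars are the upstream peaks of replicates 1 and 2, and in all 7 rows they lie over the neighbour, between positions -828 and -148. A replicate 1 peak on AT1G69680 itself is not drawn.

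Over all members whose upstream neighbour is transcribed the other way from a start within 1000 bp, 2 of 17 members were bound (11.8%), while 9 of their 17 neighbours were (52.9%). The neighbour alone was bound in 8 of these pairs and the member alone in 1, HCF136. The 8 are that of LHCB6 and the pairs already named for their upstream peaks. Among all protein-coding genes in such an arrangement, 39.4% were bound (1960 of 4970). The neighbour alone was bound for 1084 of the 4970, the gene alone for 1084 and both for 876.

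Other nuclear genes of photosynthesis were looked up from a list of chlorophyll synthesis, electron transport, carbon fixation and regulator genes, of which 49 were found outside the members. Of these, 6 were bound (12.2%), against 31.5% of other genes of like length. Others had a peak in 1 replicate and are named after their values were seen. They were GSA1, HEME2, CHLI2, LFNR1, ATPD and CGA1 in replicate 1 alone, and FD1, PGR5 and PGRL1B in replicate 2 alone. Chlorophyll synthesis had 3 of 20 bound (15%, against 34.5%), electron transport and ATP synthase 2 of 13 (15.4%, against 24.0%), regulators 1 of 8 (12.5%, against 35.5%) and carbon fixation 0 of 8 (against 31.8%). By the lower of their folds in the 2 replicates, the highest were HEMA2, a glutamyl-tRNA reductase gene, with folds of 2.4 and 2.34, PGRL1A, of cyclic electron flow, with 2.74 and 2.20, and HEMF1, a coproporphyrinogen oxidase gene, with 2.85 and 2.18. HEMA1, which encodes another glutamyl-tRNA reductase, the Rubisco small subunit gene RBCS1A, the Rubisco activase gene RCA, GAPA and the protochlorophyllide reductase gene PORB, named after their values were seen, had no peak in either replicate.

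For comparison with another strongly expressed set, ribosomal protein genes were taken by product text naming no chloroplast, mitochondrion, plastid, kinase or methyltransferase. The list was meant for cytosolic proteins, but a gene whose text does not name its organelle would remain in it. Of its 328 genes, 103 were bound (31.4%), against 23.3% of other genes of like length. Their median folds were 2.42 and 1.93. The photosystem and light-harvesting genes therefore lay below genes of like length and the ribosomal protein genes above them, and this difference between the lists was not tested.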

How the data were processed

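Peaks came from 2 UBP5-GFP IP replicates, each compared with the same input. Per the labels and methods, the authors aligned reads to TAIR10 with Bowtie2 2.4.5, dropped multiply aligned reads and ran, for each replicate, MACS3 3.0.0 at a q-value of 0.01. The deposited fold is a ratio of summit pileup to the background level that the caller expected there, and the deposited p-values and q-values are −log10 values. The integer score in the deposited lists was not used. Fold thus depends on depth and on that level, and read totals were not analysed here.

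Genes and sequence came from RefSeq TAIR10.1. All peaks ended within its chromosomes 1 to 5, and the few mitochondrial peaks were left out. The strongest peak on a gene gave its fold and summit. Other genes were weighted to the members' shares of 10 length classes, with 5 or 20 classes, or genes within 10% of each length, as alternatives. Scripts (Python 3.11, pandas, scipy) were tested on simulated data with known answers.

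Members, gene lists and comparisons were chosen with earlier results of these data known. Named genes were up to 12 bound members by lower fold, all antenna genes, members with a peak in 1 replicate and 3 other photosynthesis genes by lower fold. Of 54 listed photosynthesis symbols, 49 gave a gene. With 2 replicates and presence or absence of peaks, no test was made.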

Additional observations from a re-analysis of the deposited data

Results flagged for a closer look

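Peaks on the mitochondrial genome, outside the data used above, numbered 63 in replicate 2 and 1 in replicate 1. Neither list held a peak on the chloroplast genome, where the remaining photosystem subunits are encoded.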

How the results depend on the processing

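The count of 6 bound members was within 1.5 times of itself with q under 1e-05 (5), with peaks of the replicates required to overlap each other, with summits required inside the body, with peaks on another gene left out and without assembly factors (5), and leaving out a replicate gave 6 to 9. It moved to 1 with q under 1e-20 (AT3G05410, with 7.89% of other genes of like length) and to 0 with a fold of at least 3 (with 2.41%). With the body extended 500 bp upstream it moved to 13. When gene notes were also searched it moved to 22 of 119 genes (18.5%, against 29.0% of all genes). The antenna and photosystem I genes, counted apart after seeing the data, stayed at 0 of 33 without either replicate and had 4 upon the upstream extension. With other length weightings the share of other genes lay between 21.6% and 21.8%. The median folds and summit distances moved by less than the spread between replicates under each alternative run. No paired analysis was possible because 1 group alone has 2 replicates and no test was fitted. With 6 bound genes and no IP without GFP, these shares describe 2 peak lists.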

Other observations

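The 9 members with a peak in replicate 1, the 6 bound ones included, all lie on the + strand of their chromosome, which holds 33 of the 60 members. None of the 27 members on the − strand had a peak. Over all protein-coding genes the bound share was 29.3% on the + strand and 28.8% on the − strand. The pattern was noticed after the peaks were assigned and was not tested.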
